A study of Saccharomyces cerevisiae with 2 samples.

Results

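The genes described here are tE(CUC)I, tE(CUC)D and tE(UUC)M, 3 of the 252 tRNA genes listed for small RNA of S phase cells of Saccharomyces cerevisiae. The CUC genes were taken because they are both genes of that anticodon, and tE(UUC)M was chosen by its estimated count in the cdk1-as1 library, the highest of the UUC genes. That count was 144 for tE(UUC)M, and the next highest count of a UUC gene there was 14.6. Levels of tE(UUC)M in cdk1-as1, and its difference from WT, are therefore given as a description. The RefSeq annotation of the sacCer3 assembly calls all 3 genes tRNA-Glu, and the anticodon was found in the sequence of each.

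Small RNA of a CDK1 strain of wild type genotype (WT) and of a cdk1-as1 strain was sequenced, each as 1 library. The cdk1-as1 allele replaces the phenylalanine at position 88 of the cyclin-dependent kinase Cdk1 by glycine, which lowers its activity even without an inhibitor. The culture protocol, the same for both, has cells held in G1 for 3 h with 15 mg/L of the mating pheromone α factor and then released in YPD, with or without nocodazole at 10 mg/L, until S phase. It names no inhibitor of the mutant kinase and does not say whether these cells received nocodazole. As neither strain was replicated, every difference below is between these libraries and not shown to be one between the strains. Intervals are at 95% and cover counting error only.

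tRNA of glutamate carries this amino acid to the codons GAA and GAG. The anticodon CUC pairs with GAG, whereas UUC, whose wobble uridine is modified after transcription in yeast, reads GAA. RNA polymerase III makes these RNAs from promoters inside the gene. The factor TFIIIC binds the A box and the B box of the gene, TFIIIB is placed in front of it, and the polymerase stops in a run of T after it.

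The gene bodies decide which of these genes a fragment can be told to come from, so they are shown first, 5′ to 3′ on the strand of the gene, with the anticodon in capitals. The UUC sequence shared by the 13 other nuclear UUC genes is given for comparison, here as tE(UUC)E1. tE(CUC)I lies on chromosome IX from 197592 to 197663 on the + strand, tE(CUC)D on chromosome IV from 1017207 to 1017278 on the − strand, and tE(UUC)M on chromosome XIII from 290801 to 290872 on the + strand.
tE(CUC)I: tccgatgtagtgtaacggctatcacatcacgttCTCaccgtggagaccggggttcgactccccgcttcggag
tE(CUC)D: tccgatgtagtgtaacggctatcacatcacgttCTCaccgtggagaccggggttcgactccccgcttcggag
tE(UUC)M: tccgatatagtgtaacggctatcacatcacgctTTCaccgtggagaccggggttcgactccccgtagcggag
tE(UUC)E1: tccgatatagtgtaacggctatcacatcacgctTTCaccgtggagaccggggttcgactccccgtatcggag
The CUC genes were identical over all 72 bases, and no other annotated tRNA gene had their sequence. A fragment inside the gene body therefore matches tE(CUC)I and tE(CUC)D equally well. tE(UUC)M had no identical copy and differed from the other UUC genes by 1 substitution, T67G, with positions counted from 1 at the 5′ end of the gene. The 13 other UUC genes were identical to each other. From their sequence the CUC genes differed by 5 substitutions, A7G, C32T, T34C, T65C and A66T, of which T34C is the first base of the anticodon.

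In the acceptor stem, which joins both ends of a tRNA, position 67 faces position 5 and position 66 faces position 6. The shared UUC sequence had Watson-Crick pairs at all 7 positions of this stem, and the CUC genes and tE(UUC)M had them at 6. T67G took away the pair in tE(UUC)M and A66T that in the CUC genes, whereas A7G and T65C face each other and form another Watson-Crick pair. The A box of the standard consensus was found once in each of the 3 genes, at positions 8 to 18, and in 100% of the 239 listed nuclear genes. The letters GGTTCGA, the core of the B box, were found once, at positions 51 to 57, and in 57.3% of the nuclear genes. Both strands of each gene body were searched, and these motifs do not overlap. No substitution lies in either box, so the matched letters are the same in all 3 genes. A match is a description of the sequence and not of binding.

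The flanks are where the CUC genes can be told apart. The 50 bases before each gene were as follows, on the strand of the gene.
tE(CUC)I, chrIX:197542-197591: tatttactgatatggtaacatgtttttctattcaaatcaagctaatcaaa
tE(CUC)D, chrIV:1017279-1017328: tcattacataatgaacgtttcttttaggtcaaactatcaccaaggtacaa
tE(UUC)M, chrXIII:290751-290800: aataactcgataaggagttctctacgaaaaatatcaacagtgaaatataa
Aligned without gaps, tE(CUC)I and tE(CUC)D shared 17 of these 50 bases and tE(CUC)I and tE(UUC)M shared 20. The 30 bases after each gene were as follows, with the first run of at least 4 T in capitals.
tE(CUC)I, chrIX:197664-197693: ttaTTTTTTattcttttttttttagggact
tE(CUC)D, chrIV:1017177-1017206: tttcTTTTTTattttctagaaaaattcaca
tE(UUC)M, chrXIII:290873-290902: TTTTctttttgaagaaatttgaaaattttt
The run began at base 4 after tE(CUC)I and at base 5 after tE(CUC)D, with 6 T in both, and at base 1 after tE(UUC)M, with 4 T. A run of at least 4 T lay in this window after 98.3% of the nuclear genes. No annotated gene overlapped the 3 genes, and each is a single exon. The nearest protein-coding genes were YIL089W and AVT7, a vacuolar amino acid transporter gene, for tE(CUC)I, HXT2, a glucose transporter gene, and CLU1 for tE(UUC)M, and MTH1, a regulator of glucose transporter genes, and RNH202, a subunit gene of RNase H, for tE(CUC)D. The nearest start or end of such a gene was 261 bases from tE(UUC)M, 267 from tE(CUC)I and 1504 from tE(CUC)D.

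For each gene the authors deposited an estimated count, which need not be whole, and an FPKM value, by its name fragments scaled to gene length and depth. FPKM per count differed between genes of the same length within a library, so FPKM was not the deposited count scaled by these alone. Counts summed to 2952 over 244 listed genes in WT and to 1570 over 207 in cdk1-as1, with a median of 2.37 and 1.18 counts per gene. The summed FPKM in cdk1-as1 was 41.5% of that in WT and the summed count 53.2%.

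tE(CUC)I had an estimated count of 230 in WT (Poisson interval 201 to 262) and of 142 in cdk1-as1 (120 to 167). By FPKM it stood at 855033 in the first and at 442062 in the second library. The WT library was thus the higher by both measures, and the counting intervals of the libraries do not overlap. In counts cdk1-as1 stood at 61.5% of WT (exact binomial interval 49.7 to 76.4%), a log2 ratio of −0.70 (−1.01 to −0.39), and in FPKM at 51.7%, a log2 ratio of −0.95. The ratio turns positive when the libraries are scaled to the same total, with a log2 ratio of 0.32 in FPKM and 0.21 in counts. tE(CUC)I was the highest of all listed genes in WT by count and by FPKM, and second to tE(UUC)M by both in cdk1-as1.

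tE(UUC)M had an estimated count of 152 in WT (129 to 178) and of 144 in cdk1-as1 (121 to 170). By FPKM the levels were 569329 (WT) and 456903 (cdk1-as1). The counts of the libraries lay within each other's counting intervals. In counts cdk1-as1 stood at 94.7% of WT (74.9 to 120%), a log2 ratio of −0.08 (−0.42 to 0.26), and in FPKM at 80.3%, a log2 ratio of −0.32. With equal totals the sign turns here too, with a log2 ratio of 0.95 in FPKM and 0.83 in counts. In WT it came after tE(CUC)I and the intron-containing leucine gene tL(CAA)G3 by count, and after tE(CUC)I by FPKM.

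For tE(CUC)D the count was 0.910 (WT) and 0.397 (cdk1-as1), and the FPKM 11588 and 395. Both counts are under 3, taken here as a floor, so no fold between the libraries is given. Their Poisson intervals were 0.0253 to 5.57 (WT) and 0 to 3.69 (cdk1-as1). Its FPKM did not move in step with its count. FPKM per count was 12740 in WT and 995 in cdk1-as1, against 3710 and 3120 for tE(CUC)I and 3735 and 3165 for tE(UUC)M, genes of the same length. Such a mismatch was not particular to tE(CUC)D. In the UUC gene tE(UUC)C, also of this length and with few counts, FPKM per count was 3856 in WT and 12519 in cdk1-as1. By count tE(CUC)D was placed 172 of the 244 genes listed in WT and 133 of the 207 listed in cdk1-as1.

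**Figure D1:**
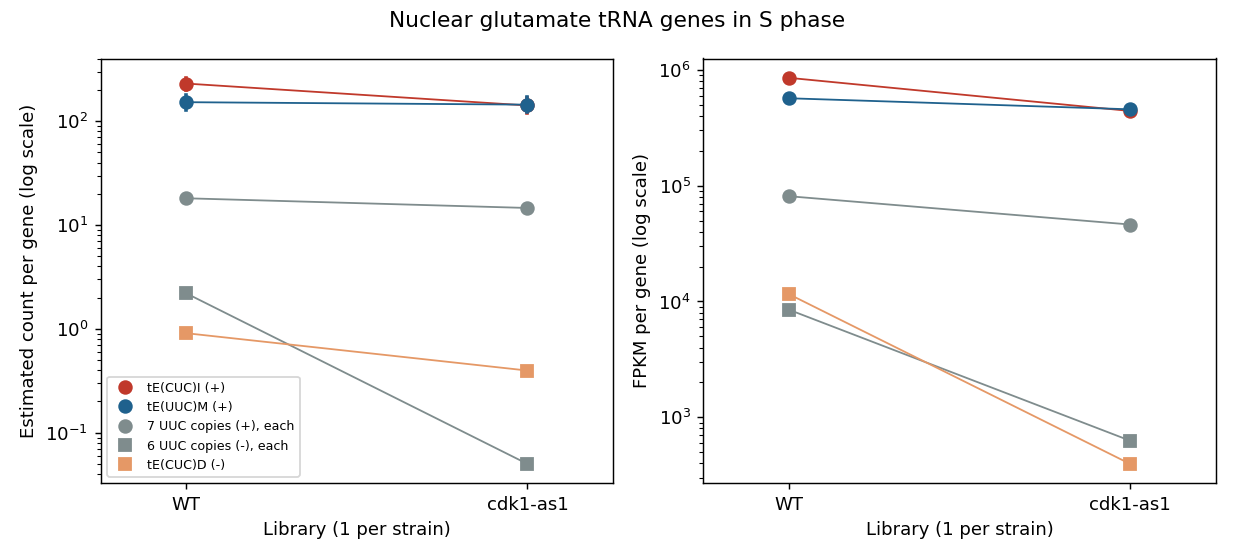
Estimated count (left) and FPKM (right) per gene of the nuclear glutamate tRNA genes in the WT and the cdk1-as1 library, on log axes. Circles are genes on the + strand and squares genes on the − strand, bars on tE(CUC)I and tE(UUC)M are 95% Poisson intervals, and tE(CUC)D lies under 1 count in both libraries while tE(CUC)I, of the same sequence, lies at 230 and 142.

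All 3 genes were lower in cdk1-as1 in FPKM, as were 89.4% of the 199 genes listed in both WT and cdk1-as1. For tE(CUC)D this direction rests on 0.910 and 0.397 counts, under the floor, and is uncertain. A level at least 2-fold lower was found for 66.3% of these 199 genes in FPKM and 58.3% in counts, and one at least 2-fold higher in FPKM for 5.53%. tE(CUC)I (51.7% of WT) lay just short of that fold and tE(UUC)M (80.3%) further from it. Where a library held 10 or more counts of a gene, as for 76 genes, 90.8% of them were lower in FPKM and 56.6% at least 2-fold lower. In WT 75 genes reached 10 counts and in cdk1-as1 50, so many of the 76 pass through WT only. That tilts the shares and medians of these 76 genes toward lower levels in cdk1-as1. Of these 76 genes 51.3% had a counting interval of the ratio wholly below 0, among them tE(CUC)I but not tE(UUC)M. An interval wholly above 0 was found for 2.63%, all of them mitochondrial serine genes. The median log2 ratio over these 76 genes was −1.37 in FPKM and −0.84 in counts. A higher log2 ratio of FPKM than that of tE(CUC)I was found for 25 of the 76, and than that of tE(UUC)M for 10. Gene copies with identical values were counted separately in these shares and places. The 10 include 4 leucine UAA copies of the + strand, and the 25 also include 7 UUC copies of the + strand.

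**Figure D2:**
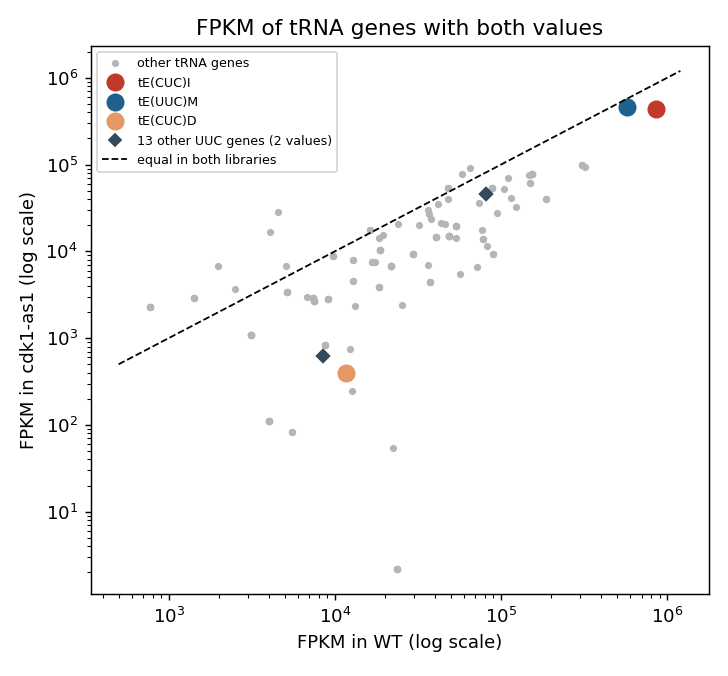
FPKM in cdk1-as1 against FPKM in WT, both on log axes, for those tRNA genes that had values in each library, where gene copies with the same values share a point. tE(CUC)I and tE(UUC)M lie at the top right, apart from the other genes and below the dashed line of equal levels. tE(CUC)D lies far below that line at 11588 and 395 FPKM, from 0.910 and 0.397 counts, so its place is uncertain.

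The difference between tE(CUC)I and tE(UUC)M does not depend on any factor that scales a whole library. tE(CUC)I had 1.51 times the count of tE(UUC)M in WT and 0.981 times in cdk1-as1. The ratio of these ratios was 0.649 (exact conditional interval of the odds ratio of the rounded counts, 0.652, from 0.473 to 0.899), and it was 0.644 in FPKM. As tE(UUC)M was chosen for its count in cdk1-as1, this is a description and not a test. The summed counts of the 223 nuclear genes other than glutamate genes stood at 47.2% of WT in cdk1-as1 (43.9 to 50.7%). Against them tE(CUC)I held a larger proportion in cdk1-as1 than in WT (odds ratio 1.31, 1.04 to 1.64). The odds ratio of tE(UUC)M was 2.01 (1.57 to 2.57), again a description and not a test, as its count in cdk1-as1 chose it.

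Together the 3 genes held 384 of the 2952 counts in WT (interval of the share 11.8 to 14.3%) and 286 of the 1570 in cdk1-as1 (18.3%, 16.3 to 20.2%), nearly all of it from tE(CUC)I and tE(UUC)M. tE(CUC)I held 7.81% of counts in WT (6.85 to 8.82%) and 9.03% in cdk1-as1 (7.67 to 10.6%), intervals that overlap. tE(UUC)M held 5.16% (4.38 to 6.01%) and 9.20% (7.79 to 10.7%), a description for the gene chosen by the latter count, which was itself 144 against 152 in WT. With genes of identical values counted as 1, the share of the 3 genes was 24.6% in WT and 32.2% in cdk1-as1. With the 13 other nuclear UUC genes, glutamate genes held 17.7% of counts in WT and 24.8% in cdk1-as1.

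The 13 other UUC genes were all lower in cdk1-as1 in FPKM, and they carry only 2 sets of values. The 7 copies on the + strand, tE(UUC)B, E1, E2, G1, G3, I and L, each had 18.1 (WT) and 14.6 (cdk1-as1) counts, and 81158 and 46209 FPKM. The 6 copies on the − strand, tE(UUC)C, E3, G2, J, K and P, each had 2.20 and 0.0501 counts, and 8501 and 627 FPKM. The copies of both kinds have the same sequence. Summed over copies, those on the + strand stood at 80.7% of WT in counts (61.3 to 105%). Those on the − strand summed to 13.2 (WT) and 0.301 (cdk1-as1) counts, 2.27% of WT with an interval of 0 to 32.8%.

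Summed by sequence, the CUC genes held 231 (WT) and 142 (cdk1-as1) counts, tE(UUC)M 152 and 144, and the 13 other UUC genes 140 and 103. The single gene tE(UUC)M was thus listed with more counts than the sum of its 13 relatives in both libraries. Fragments that do not cover position 67 match all 14 UUC genes, so how counts divide between tE(UUC)M and the others is uncertain too. Fragments that cover none of positions 7, 32, 34, 65, 66 and 67 match all 16 nuclear glutamate genes. How counts divide between CUC and UUC is uncertain for that reason as well. In the other 13 genes the sum in cdk1-as1 stood at 73.2% of WT (56.5 to 95.6%), a log2 ratio of −0.45 (−0.82 to −0.07) in counts and of −0.92 in FPKM. The ratio of ratios of tE(CUC)I to these 13 genes was 0.839 (0.596 to 1.18), so that a difference between them was not detectable at these counts. That of tE(UUC)M to the 13 genes was 1.29 (0.902 to 1.84), given as a description because its count in cdk1-as1 chose it. Per gene copy, counts in WT were 116 for CUC, 152 for tE(UUC)M and 10.8 for the 13 other UUC genes.

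**Figure D3:**
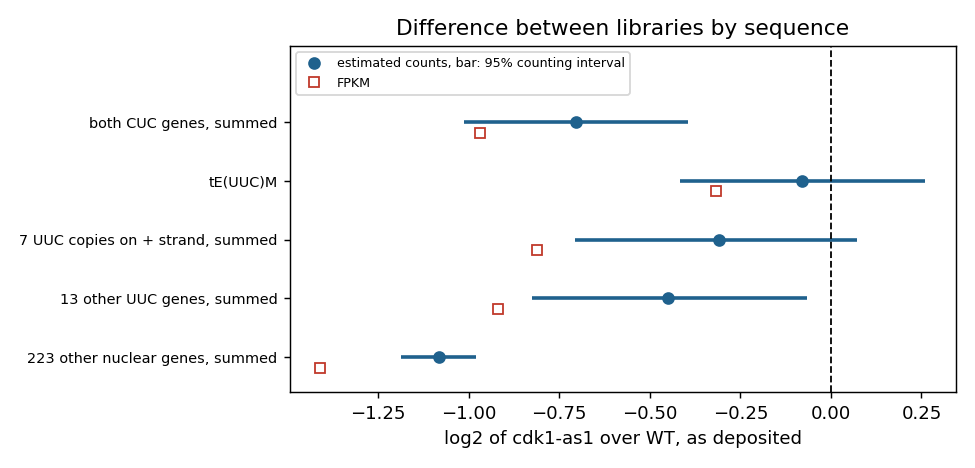
log2 of the ratio of cdk1-as1 to WT, as deposited, for sums over genes that share a sequence and for the sum of all nuclear genes other than glutamate genes. Filled points are estimated counts with their 95% counting interval and open squares are FPKM, and the interval of tE(UUC)M (−0.42 to 0.26) spans 0 while that of the CUC genes (−1.01 to −0.39) does not.

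The CUC anticodon held 44.2% of the counts of nuclear glutamate genes in WT (39.8 to 48.5%) and 36.5% in cdk1-as1 (31.7 to 41.5%), from 2 of the 16 genes, and these intervals overlap. The paper states that modifications of mature tRNA may hinder sequencing and that its data likely lean to new, unmodified tRNA. Shares of counts therefore need not be shares of the tRNAs in the cells. The summed counts of CUC over those of UUC went from 0.791 to 0.575, a ratio of ratios of 0.727 (0.550 to 0.959), which includes tE(UUC)M and so is a description. Leucine genes have a C and a U wobble anticodon as well. There the 10 genes with the exons of a CAA gene held 40.9% of the CAA and UAA counts in WT (36.9 to 44.8%) and 34.9% in cdk1-as1 (29.5 to 40.6%), which overlap likewise. They include tL(CCA)D and tL(CCA)G1, which the table names by another anticodon, and the 8 genes named CAA held 34.8% in WT (30.8 to 38.9%) and 27.6% in cdk1-as1 (22.4 to 33.4%). For lysine, CUU genes summed to 2.95 and UUU genes to 10.0 counts in WT, too few for a comparison.

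tE(CUC)I and tE(CUC)D, with the same 72 bases, lay far apart in both libraries. With a floor of 3 counts in place of the count of tE(CUC)D, tE(CUC)I was 76.8-fold higher in WT and 47.2-fold higher in cdk1-as1. These folds leave out counting error and are not lower bounds. The genes lie on opposite strands, as do the 2 sets of UUC copies. In all, 23 gene body sequences, of 186 genes, occur on both strands of the reference, and in all 23 the count per copy differed between the strands in at least 1 library. Within a strand the copies of a sequence had identical values, compared to 6 decimals, in 43 of 44 groups, the exception being the serine genes tS(UGA)I and tS(UGA)P. The + strand was not always the higher. Of the 12 such sequences with at least 10 counts per copy on either strand in WT, 6 were higher on + and 6 on −, with a median fold of 6.19 against a floor of 3 counts, and the CUC pair had the highest. In cdk1-as1, of 9 such sequences 4 were higher on + and 5 on −, with a median fold of 4.74 and the CUC pair again the highest. Where the lower count is under the floor, the fold depends on the higher count alone. The place of the CUC pair thus follows from the high count of tE(CUC)I. Whether the split follows from how fragments were assigned to gene copies was not tested, and levels of tE(CUC)D and tE(CUC)I by themselves are uncertain for that reason. The value summed over both genes is almost that of tE(CUC)I, at 61.4% of WT in counts (49.5 to 76.1%) and 51.1% in FPKM.

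**Figure D4:**
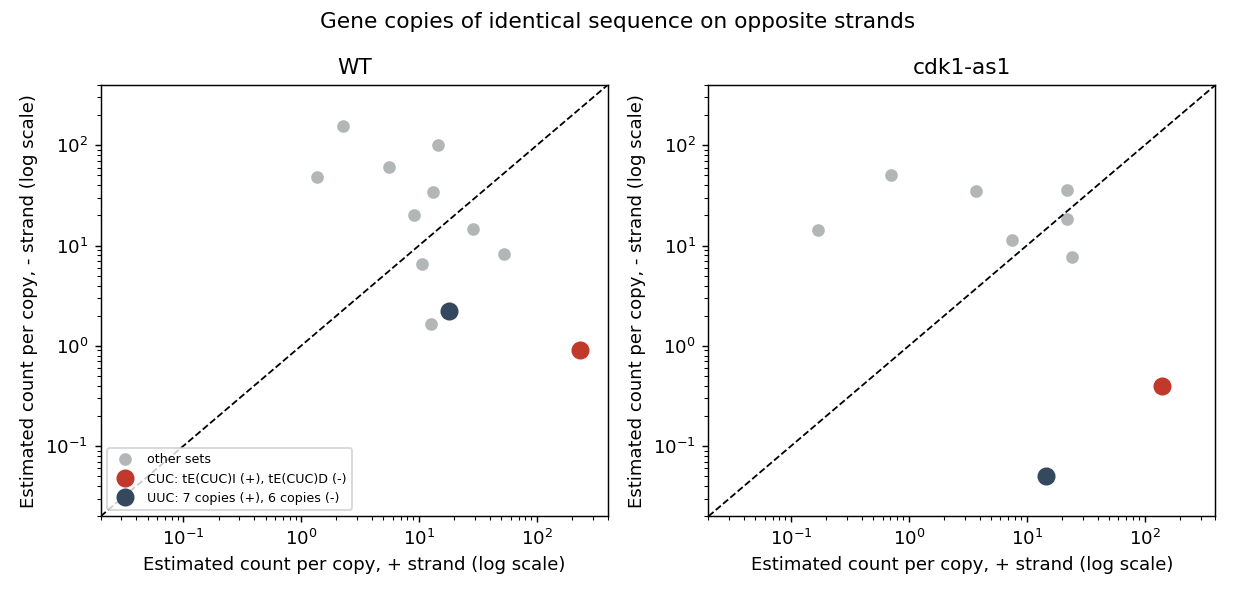
Estimated count per copy on the − strand against that on the + strand, on log axes, for gene body sequences found on both strands and with at least 10 counts per copy on either, in WT (left) and cdk1-as1 (right). Points off the dashed line are copies of identical sequence with unequal counts, the CUC pair (230 and 0.910 in WT) lies furthest from it, and the serine UGA set is shown by the mean of its + strand copies.

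Strand went with the median difference between the libraries in counts, and hardly with that in FPKM. Gene copies with identical values were counted separately, and many genes had few counts. Of the nuclear genes with both values, 74 of 88 on the + strand and 100 of 103 on the − strand were lower in cdk1-as1 in FPKM, with median log2 ratios of −1.47 and −1.51. In counts the medians were −0.999 on + and −2.04 on −. The part of strand in the differences of tE(CUC)I and tE(UUC)M, both on the + strand, was not tested. Over the listed genes, summed counts on the + strand were 1349 in WT and 863 in cdk1-as1, and on the − strand 1603 and 707.

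Likeness was measured as the distance over log10 FPKM in the 2 libraries, among 76 sets of genes with identical values. tE(CUC)I and tE(UUC)M were nearest to each other, at a distance of 0.177. Next for both came the leucine set of tL(UAA)J, with 3 copies, and tL(CAA)G3, at 0.786 and 0.801 from tE(CUC)I and at 0.715 and 0.735 from tE(UUC)M. These leucine genes stood at log2 ratios of −1.64 and −1.77 in FPKM, lower than both glutamate genes. Nearest to tE(CUC)D were the proline gene tP(UGG)F (0.210), the 6 UUC copies of the − strand (0.241) and the mitochondrial aspartate gene tD(GUC)Q (0.282). tE(CUC)D and all these neighbours had under 3 counts per gene in cdk1-as1, so this likeness is uncertain. The other genes with the highest counts were tL(CAA)G3 (154) and the tL(UAA)J set (101 each) in WT, and tL(CAA)G3 (50.1), the mitochondrial serine gene tS(GCU)Q1 (37.0) and the tL(UAA)J set (35.7 each) in cdk1-as1. The mitochondrial glutamate gene tE(UUC)Q had 6.10 and 3.83 counts, a log2 count ratio of −0.67 with an interval of −2.85 to 1.49.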

How the data were processed

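The study's methods give purification of small RNA with a kit for miRNA, and the labels isolation of total RNA with a QIAGEN kit, from S phase cells of 1 WT and 1 cdk1-as1 strain. Per these methods data were normalized with ERCC spike-in RNA. How this entered the columns, the aligner and the counting program are not given in any source read for this work. The submitters' processing notes name the build sacCer3. The authors deposited an estimated count and an FPKM per gene for each library. A side-by-side table deposited by the authors holds gene names, RPKM, which equalled FPKM within 1e-05 of the value in all 199 genes with both values, and fold change and FDR columns, which were not used.

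Genes named by another anticodon than other genes with the same exons were grouped with these. Positions and sequences were taken from RefSeq (assembly R64, the sacCer3 sequence), in which all 252 genes were found with the listed lengths. log2 ratios of cdk1-as1 to WT have no pseudocount. Intervals of rounded counts at 95% are exact (Clopper-Pearson, Poisson, or conditional for odds ratios, SciPy 1.17.1) and hold if counts are sequenced fragments. The code was tested on simulated data. The sums of 2952 and 1570 counts are over the listed tRNA genes and are not the sequencing depth of the libraries. No p-value is given, as each strain has 1 library.

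Members and lists were chosen with earlier results of these data known. Named genes are the members, the other glutamate genes, the 5 highest counts per library and the 3 nearest sets of each member. Alternatives were pseudocounts, scalings, counts, folds of 1.5 and 4, a minimum of 10 counts and identical values counted as 1. Glutamine CUG and arginine CCU genes were not analysed here.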

Additional observations from a re-analysis of the deposited data

How the results depend on the processing

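With both libraries scaled to the same summed FPKM, the log2 FPKM ratio of tE(CUC)I was 0.32, and that of tE(UUC)M 0.95; with nuclear genes other than glutamate genes as the total they were 0.46 and 1.09. In counts the same scalings gave 0.21 and 0.38 for tE(CUC)I, and 0.83 and 1.00 for tE(UUC)M. By their construction these scalings remove a change common to the listed genes. The percentage held by the 3 genes was 24.6% in WT and 32.2% in cdk1-as1 with identical values counted as 1, and 20.4% in cdk1-as1 by FPKM. The number of genes at least 2-fold lower in FPKM, 132 of 199, was 52 at a fold of 4, 43 of 76 with at least 10 counts, 45 of 76 with identical copies counted as 1, 45 with equal totals and, chosen after the data were seen, 55 of 96 on the + strand and 77 of 103 on the − strand. Of all alternatives 30 kept their value within the counting interval, or their count within 1.5 times, while the others moved further, and 8 changed sign, all under equal totals, 4 for tE(CUC)I and 4 for tE(UUC)M. For tE(CUC)D, with under 1 count, the interval is so wide that this says nothing about stability. No paired analysis was possible because each strain has 1 library.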
